A study of Mus musculus with 20 samples.

Results

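Levels of 6 genes of the endocannabinoid system were measured by RNA sequencing of whole hippocampus from mice with a mutated Fmr1 gene and from C57 mice, in both sexes. The genes were taken by symbol and are 6 of the 13256 protein-coding genes in the deposited tables: the receptor gene Cnr1, the synthetic enzyme genes Dagla and Daglb, and the hydrolase genes Mgll, Abhd6 and Faah. All 6 were listed in every library and all 6 passed the filter on low values. Each of the 4 groups held 5 libraries: C57 control females (female WT), Fmr1 mutant females (female KO), and the C57 control and Fmr1 mutant males (male WT, male KO). No group received a treatment, and all mice were kept on a 12-hour light cycle. The sample titles call the mutants KO and the genotype field calls them an Fmr1 knockdown. KO is used here, and age, allele, breeding background and any pooling were not given in the sources used here. The labels do not say that samples of a group are separate animals, so p-values here reflect the spread between samples, which may be technical. The series title names sex differences in Fmr1 mutants as its subject, so the genotypes were compared within each sex and the sexes within each genotype.

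Endocannabinoids are lipids that carry signals backwards across synapses. Calcium entry or Gq-coupled receptors in the postsynaptic cell activate phospholipase C and diacylglycerol lipases, which make 2-arachidonoylglycerol, and this lipid acts on CB1 receptors of the presynaptic terminal and lowers transmitter release. In the hippocampus CB1 is densest on the axons of cholecystokinin (CCK) interneurons and is also present, at lower density, on glutamatergic terminals. Monoacylglycerol lipase and ABHD6 break down 2-arachidonoylglycerol, and fatty acid amide hydrolase breaks down the other main endocannabinoid, anandamide.

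Expression is given in FPKM, fragment numbers divided by gene length and by the size of the library, so that levels of different genes can be set side by side. The number of reads behind each value is unknown. Fmr1 itself was at 10.6 ± 0.558 FPKM in female WT and 3.32 ± 0.327 in female KO, while males had 11.4 ± 0.527 in WT and 3.56 ± 0.187 in KO (mean ± SD, n = 5 each). The mutant libraries thus kept 31.2% (females) and 31.3% (males) of the control level, with no overlap (exact two-sided permutation p = 0.00794 in each sex, the smallest that 252 splits allow). Libraries correlated pairwise at 0.977 to 0.990. The 7 markers of hippocampal principal neurons summed to 340 to 382 FPKM in every library. Of the 7, 2 passed at a limma adjusted p under 0.05 between KO and WT in females, against 3.32% of all tested genes. Ttr, a choroid plexus gene, exceeded 500 FPKM in 4 libraries (female WT 4, female KO 4 and 5, male KO 2), and Prl, a pituitary hormone gene, exceeded 4 FPKM in 3 (female KO 2, 3 and 4). For each library, deviations from the gene means over 20 libraries were regressed on GC content, so a slope is relative to the other libraries. Slopes were higher in all 5 female KO libraries (log2 slope of 0.065 to 0.082 per 10% GC) than in every library of the other groups. Those ran from -0.028 to 0.033 in WT females, -0.0998 to 0.009 in WT males and -0.069 to 0.007 in KO males. Results were also computed without the libraries high in Ttr or in Prl, and with the GC trend removed. Such values are given where they change a call.

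Cnr1 had the highest level of the 6 genes and Daglb the lowest. Over the 20 libraries the median was 38.2 FPKM for Cnr1, 26.7 for Mgll, 20.8 for Dagla, 16.6 for Abhd6, 11.9 for Faah and 3.03 for Daglb. By its mean over the 20 libraries Cnr1 lay above 92.4% of the listed genes, and Daglb above 32.4%. Cnr1 exceeded Mgll in 20 of 20 libraries, Abhd6 exceeded Faah in 20 of 20 and Faah exceeded Daglb in 20 of 20. Mgll exceeded Dagla in 19 of 20, the exception being female WT 1, and the ranges of these 2 genes overlapped in female WT only. Dagla and Abhd6 could not be ordered: Dagla was higher in 12 of 20 libraries, and their ranges overlapped in all 4 groups. The ranges of the 3 pairs with 20 of 20 did not overlap within any group.

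**Figure D1:**
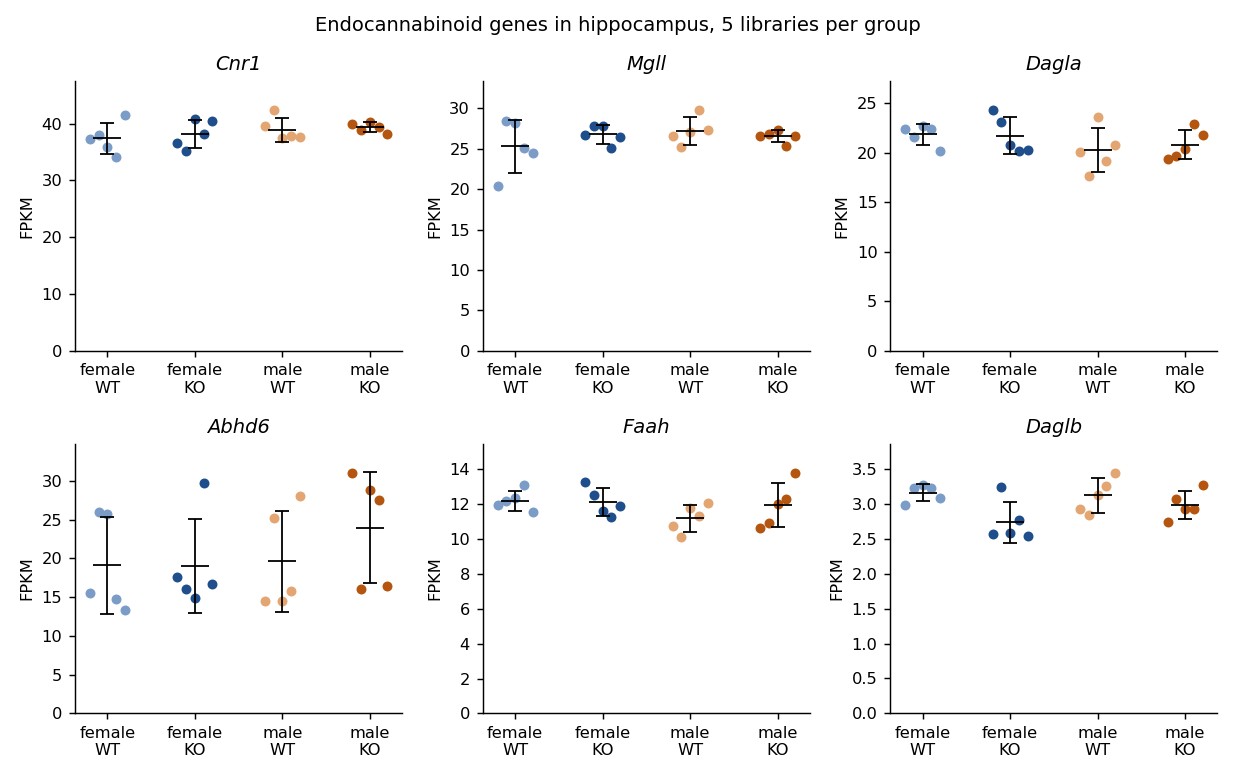
FPKM (y axis, from 0) of the 6 genes in each library (points), with the group mean and SD (bars), for WT and KO females and then WT and KO males, 5 libraries per group. The groups overlap for every gene, and Abhd6 is the only panel where the points fall into an upper and a lower level.

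None of the 6 genes passed the threshold (limma, Benjamini-Hochberg adjusted p under 0.05 over 13174 tested genes) between KO and WT in either sex. In females 0 of 6 passed against a background of 3.32% of all tested genes, and 1 of 6 (Daglb) had an unadjusted p under 0.05. In males 0 of 6 passed against 0.0455%, with 0 of 6 at an unadjusted p under 0.05. For the mean of both KO effects 0 of 6 passed (background 3.22%; 1 of 6 unadjusted, again Daglb), and for the male minus the female KO effect 0 of 6 passed (background 0.0455%; 0 of 6 unadjusted). Males and females differed past the threshold in 0 of 6 genes within WT (background 0.129%; 0 of 6 unadjusted) and in 0 of 6 within KO (background 5.38%; 0 of 6 unadjusted). Nor did the 5 libraries of one group separate fully from the 5 of another for any of the 6 genes. Among all tested genes the groups did not overlap for 5.99% between KO and WT in females, 2.0% between KO and WT in males, 2.18% between the sexes in WT and 8.02% between the sexes in KO. The median log2 difference (KO minus WT, on the log2(FPKM + 1) scale, as are all differences here) of the 6 genes was -0.004 in females and 0.029 in males, beside 0.005 and -0.001 for all tested genes. In whole tissue, fewer cells of a type and less RNA per cell cannot be told apart.

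**Figure D2:**
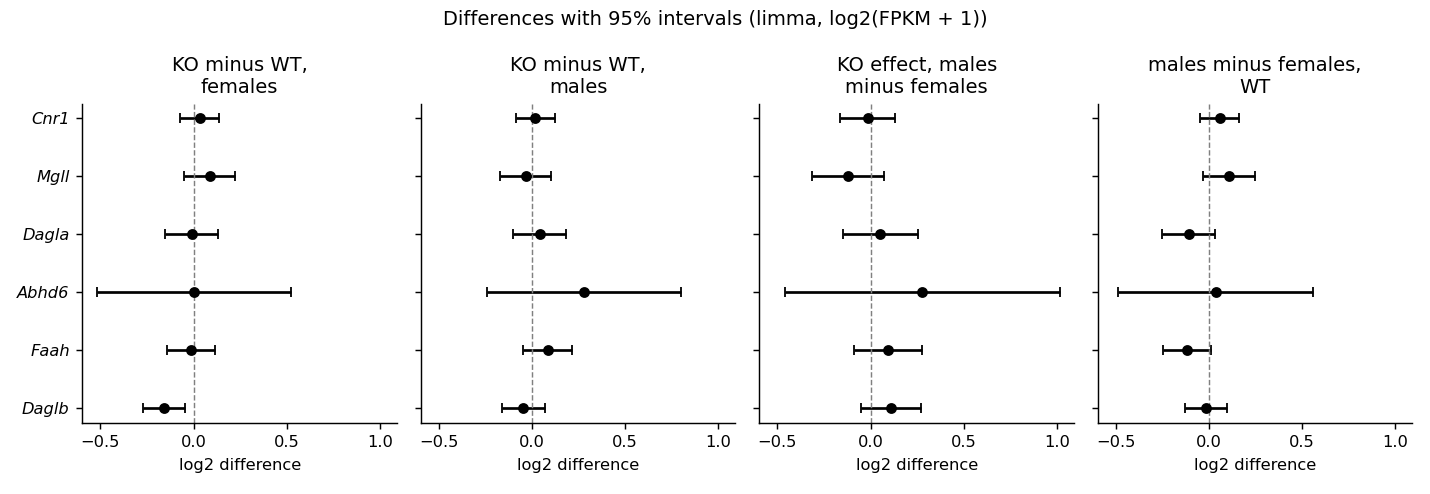
Log2 differences (x axis, log2(FPKM + 1) scale) of the 6 genes with their 95% intervals from limma, for KO minus WT in females, KO minus WT in males, the difference between those effects, and males minus females in WT. The interval of Daglb in females is the only one shown that leaves out 0 before adjustment, and those of Abhd6 are the widest.

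Cnr1 encodes CB1, the main cannabinoid receptor of the brain (ENSMUSG00000044288.6, chr4:33924593-33948831, plus strand, mm10). Its level was 37.3, 38.1, 36.0, 34.1 and 41.6 FPKM in female WT and 36.6, 35.2, 40.8, 38.2 and 40.5 in female KO. In males it was 39.5, 42.4, 37.4, 37.8 and 37.6 in WT and 40.0, 38.9, 40.3, 39.4 and 38.2 in KO. The 4 groups overlapped throughout, with the lowest value (34.1) in female WT and the highest (42.4) in male WT. The log2 difference was 0.03 in females (SE 0.0497, 95% interval -0.07 to 0.14, limma adjusted p = 0.771) and 0.02 in males (interval -0.09 to 0.12, adjusted p = 0.960). Between the sexes it was 0.06 in WT (adjusted p = 0.727) and 0.04 in KO (adjusted p = 0.645), males minus females. The 6 CCK interneuron markers summed to 160 to 178.87 FPKM in female WT and 178.91 to 202 in female KO, while the male ranges were 156 to 185 (WT) and 146 to 178 (KO). The sum is mostly Cck and Cxcl14, at means of 120 and 38.4 FPKM over the 20 libraries. None of the 6 markers passed the threshold in either sex, and the part of CCK interneurons in the Cnr1 level was not tested.

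As the receptor gene with the highest level of the 6, Cnr1 is shown with the DNA around one of its RefSeq start sites, 250 bases before to 50 after the start (chr4:33924394-33924693, plus strand, GRCm38.p6), with each CpG in capitals to show how densely the start is covered by this dinucleotide.
Cnr1: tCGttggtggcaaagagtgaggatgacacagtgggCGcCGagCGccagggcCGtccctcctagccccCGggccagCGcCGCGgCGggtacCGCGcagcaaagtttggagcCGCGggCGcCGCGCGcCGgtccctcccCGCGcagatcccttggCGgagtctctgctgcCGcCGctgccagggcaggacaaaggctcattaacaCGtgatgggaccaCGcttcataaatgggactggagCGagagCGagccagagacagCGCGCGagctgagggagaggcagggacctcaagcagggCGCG
This window holds 33 CpG, beside a median of 7 over the 32851 windows of the RefSeq table. The RefSeq table gives 9 windows for 5 of the 6 genes and has no entry for Dagla. The windows of Cnr1 held 40, 33 and 5 CpG, those of Mgll 32 and 42, those of Abhd6 24 and 26, that of Faah 16 and that of Daglb 11. The TATA box letters TATAAA, searched on both strands, were in 0 of the 9 windows and in 13.6% of all windows. The cyclic AMP response element TGACGTCA was in 0 of 9 and in 1.79% of all windows, and the GC box GGGCGG was in 6 of 9 and in 35.7% of all windows. These motifs do not overlap one another, and a match describes letters only. The windows of Abhd6 overlap each other and can share a match, so the 9 windows are not independent.

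Dagla and Daglb encode the alpha and beta diacylglycerol lipases, which make 2-arachidonoylglycerol. The alpha enzyme makes most of it in the adult brain. Dagla (ENSMUSG00000035735.10, chr19:10245265-10304877, minus strand) was at 22.4, 21.6, 22.7, 22.4 and 20.2 FPKM in female WT and 24.3, 23.1, 20.8, 20.2 and 20.2 in female KO. In males it was at 20.02, 17.6, 23.6, 19.2 and 20.8 in WT and 19.4, 19.7, 20.4, 22.9 and 21.7 in KO. The lowest and nearly the highest Dagla values (17.6 and 23.6) both came from male WT, and all groups overlapped. The difference was -0.01 in females (95% interval -0.15 to 0.13, limma adjusted p = 0.953) and 0.04 in males (interval -0.10 to 0.18, adjusted p = 0.917). Males minus females in WT it was -0.11 (interval -0.25 to 0.03, adjusted p = 0.601).

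Daglb (ENSMUSG00000039206.13, chr5:143464584-143505942, plus strand) came nearest to the threshold. It was at 2.98, 3.23, 3.28, 3.23 and 3.09 FPKM in female WT and at 2.57, 3.24, 2.58, 2.77 and 2.54 in female KO. In females 4 of the 5 KO libraries were below every WT library, and KO 2, at 3.24, lay among the WT values. The mean was 3.16 ± 0.124 FPKM in female WT and 2.74 ± 0.293 in female KO (SD, n = 5 each), a log2 difference of -0.16 (SE 0.0545, 95% interval -0.27 to -0.04) with an unadjusted p of 0.00936 and an adjusted p of 0.115 (limma). Without female KO 2 the difference was -0.20 and the adjusted p 0.0471. With the GC trend removed it was -0.16 (adjusted p = 0.131). In males Daglb was at 2.93, 2.84, 3.13, 3.25 and 3.45 FPKM in WT and 2.74, 3.07, 2.92, 2.93 and 3.28 in KO, which overlapped. The male difference was -0.05 (interval -0.16 to 0.07, adjusted p = 0.884). The mean effect over both sexes was -0.10 (interval -0.18 to -0.02, unadjusted p = 0.0161, adjusted p = 0.162), and the KO effects of the sexes differed by 0.11, males minus females (interval -0.05 to 0.27, adjusted p = 0.665).

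Daglb shares 2309 of its 9567 exon bases with Rac1, which encodes a small GTPase and lies tail to tail with it on the opposite strand, and the strand setting of the authors' counting is not known here. Rac1, named for this overlap, was at 13.3 to 28.0 FPKM in 3 libraries (female WT 2 and 5, female KO 1) and at 72.9 to 81.9 in the other 17. Daglb was at 3.23, 3.09 and 2.57 FPKM in those 3 libraries, inside the range of the others (2.54 to 3.45). The ratio of Dagla to Daglb within a library, in which the scaling of the library cancels, was 6.91 ± 0.373 in WT and 7.98 ± 0.932 in KO females and for males it was 6.50 ± 0.686 in WT and 6.98 ± 0.538 in KO (mean ± SD, n = 5 each). The ratios ran from 6.53 to 7.50 in female WT and from 7.12 to 9.48 in female KO, so the groups overlapped.

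Mgll encodes monoacylglycerol lipase, the main enzyme that hydrolyses 2-arachidonoylglycerol in the brain (ENSMUSG00000033174.17, chr6:88724412-88828360, plus strand). It was at 20.4, 28.5, 28.2, 25.1 and 24.5 FPKM in female WT and 26.7, 27.8, 27.9, 25.05 and 26.5 in female KO. In males it was at 26.6, 25.2, 27.1, 29.8 and 27.4 in WT and 26.6, 26.9, 27.3, 25.3 and 26.6 in KO. Female WT 1 was the lowest of the 20 and male WT 4 the highest, and both WT groups spanned the KO group of their sex. The difference was 0.09 in females (95% interval -0.05 to 0.22, limma adjusted p = 0.490), -0.03 in males (interval -0.17 to 0.10, adjusted p = 0.933) and 0.11 between the sexes in WT (interval -0.03 to 0.25, adjusted p = 0.596). Mgll shares 167 of its 5077 exon bases with the antisense gene Gm26588, and its reads there cannot be told apart without the strand setting. The ratio of Dagla to Mgll, the main synthetic over the main hydrolytic enzyme, was 0.875 ± 0.132 in WT and 0.811 ± 0.0645 in KO females and for males it was 0.745 ± 0.0847 in WT and 0.786 ± 0.0754 in KO (mean ± SD, n = 5 each), with overlapping ranges.

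Abhd6 encodes a membrane hydrolase that breaks down a smaller share of 2-arachidonoylglycerol (ENSMUSG00000025277.14, chr14:8002902-8056763, plus strand), and it was the most variable of the 6. It was at 15.6, 26.0, 25.8, 14.8 and 13.4 FPKM in female WT and 17.6, 16.004, 14.96, 29.8 and 16.7 in female KO. In males it was at 14.6, 25.2, 14.6, 15.8 and 28.1 in WT and 31.1, 16.002, 28.9, 27.6 and 16.4 in KO. The 20 libraries fell on an upper level of 8 libraries (25.2 to 31.1 FPKM, median 27.8) and a lower level of 12 (13.4 to 17.6, median 15.7), with none between. The upper level held 2 WT and 1 KO library from females and 2 WT and 3 KO libraries from males, so every group had both levels. The upper median was 1.77 times the lower, and the empty stretch took 42.7% of the range of values. Of 11807 tested genes with a mean of at least 1 FPKM, 221 (1.87%) had an empty stretch of at least that share with 3 or more libraries on each side. The SD of Abhd6 within groups was 0.427 on the log2 scale, higher than that of 98.0% of 1781 genes of like level, whose median was 0.0858.

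**Figure D3:**
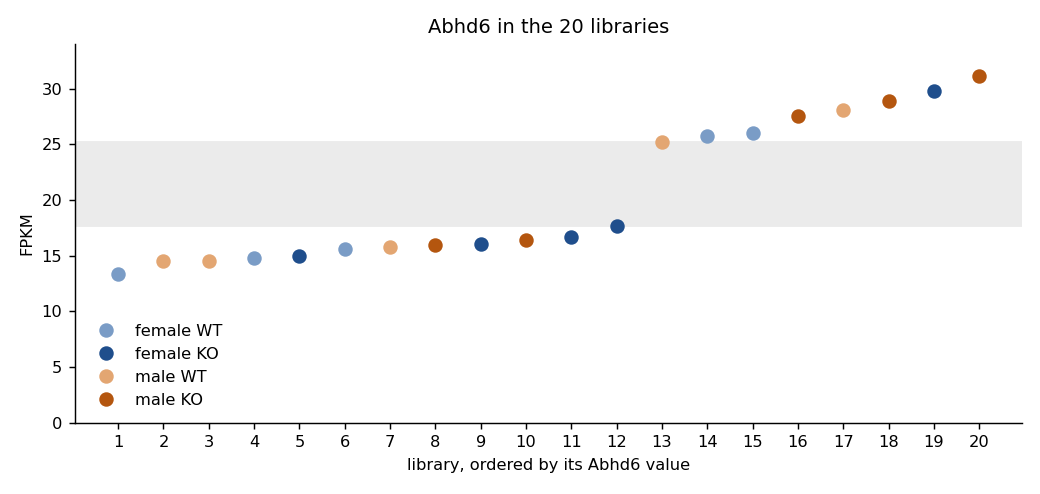
FPKM of Abhd6 (y axis, from 0) in the 20 libraries ordered by value (x axis), coloured by group, with the empty stretch between 17.6 and 25.2 FPKM shaded. All 4 colours appear both above and below the shaded band.

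With that spread, the Abhd6 difference between KO and WT was 0.00 in females (SE 0.249, 95% interval -0.52 to 0.52, limma adjusted p = 0.998) and 0.28 in males (interval -0.24 to 0.80, adjusted p = 0.812). Males minus females in KO it was 0.31 (adjusted p = 0.480). These intervals are several times wider than those of the other 5 genes, so a change of moderate size was not detectable here. The other 5 genes had within-group SDs of 0.0795 (Cnr1) to 0.111 (Dagla), and that of Daglb, at 0.0809, was higher than only 15.9% of genes of like level. The ratio of Mgll to Abhd6 was 1.40 ± 0.341 in WT and 1.51 ± 0.397 in KO females and for males it was 1.51 ± 0.478 in WT and 1.20 ± 0.408 in KO (mean ± SD, n = 5 each), and it fell below 1 only in libraries on the upper Abhd6 level. Of the 8 upper libraries only female KO 4 was high in Ttr, and the same library was the only one high in Prl. GENCODE M21 gives 3 coding Abhd6 transcripts of 2226, 1958 and 1401 bases and no overlapping gene. The deposited value is 1 per gene, and the share of each transcript was not analysed here. The start of Abhd6 is shown because its level differed most among libraries of one group. It is the window at chr14:8002638-8002937, plus strand, GRCm38.p6, with its 24 CpG in capitals, and a second RefSeq window at chr14:8002716-8003015 overlaps it.
Abhd6: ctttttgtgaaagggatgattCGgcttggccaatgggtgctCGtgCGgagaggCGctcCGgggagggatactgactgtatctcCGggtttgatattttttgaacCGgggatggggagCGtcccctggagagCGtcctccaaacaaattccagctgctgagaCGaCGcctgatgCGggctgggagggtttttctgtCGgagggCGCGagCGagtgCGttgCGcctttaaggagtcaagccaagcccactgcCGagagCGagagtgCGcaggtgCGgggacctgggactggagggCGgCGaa

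Faah encodes fatty acid amide hydrolase, which ends the action of anandamide (ENSMUSG00000034171.13, chr4:115967145-116017926, minus strand). It was at 11.9, 12.2, 12.3, 13.1 and 11.5 FPKM in female WT and 13.3, 12.5, 11.6, 11.2 and 11.9 in female KO. In males it was at 10.7, 10.1, 11.8, 11.3 and 12.0 in WT and 10.7, 10.9, 12.0, 12.3 and 13.8 in KO. The highest Faah value (13.8) was male KO 5 and the lowest (10.1) male WT 2, and all groups overlapped. The difference was -0.01 in females (95% interval -0.14 to 0.12, limma adjusted p = 0.938) and 0.08 in males (interval -0.05 to 0.21, adjusted p = 0.757). Males minus females in WT it was -0.12 (interval -0.25 to 0.01, adjusted p = 0.524).

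Within groups some of the genes varied together. Deviations of log2(FPKM + 1) from the group means were correlated over the 20 libraries for the 15 pairs of genes. With 100000 permutations within groups and Benjamini-Hochberg adjustment over the pairs, 4 pairs passed. The share of all gene pairs that would pass was not computed, so these 4 have no background beside them. Dagla and Faah rose and fell together (r = 0.75, adjusted permutation p = 0.00465; rho = 0.82, adjusted p = 0.00345). Libraries with more Cnr1 for their group had less Dagla (r = -0.67, adjusted permutation p = 0.00701; rho = -0.72, adjusted p = 0.0062), less Faah (r = -0.63, adjusted p = 0.00465; rho = -0.71, adjusted p = 0.0051) and less Daglb (r = -0.64, adjusted p = 0.00701; rho = -0.60, adjusted p = 0.0263). Abhd6 was not related to any of the other 5 (r between -0.20 and 0.11). For Daglb and Mgll r was 0.40 (adjusted permutation p = 0.0718) and rho 0.57 (adjusted p = 0.0355), and for Daglb and Faah r was 0.53 (adjusted p = 0.0748). Without the 2 libraries farthest from the median of the first gene, the 4 values were 0.65 (Dagla and Faah), -0.63 (Cnr1 and Dagla), -0.51 (Cnr1 and Faah) and -0.62 (Cnr1 and Daglb), all still past the threshold, and Daglb and Faah passed too (r = 0.72, adjusted permutation p = 0.0288).

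**Figure D4:**
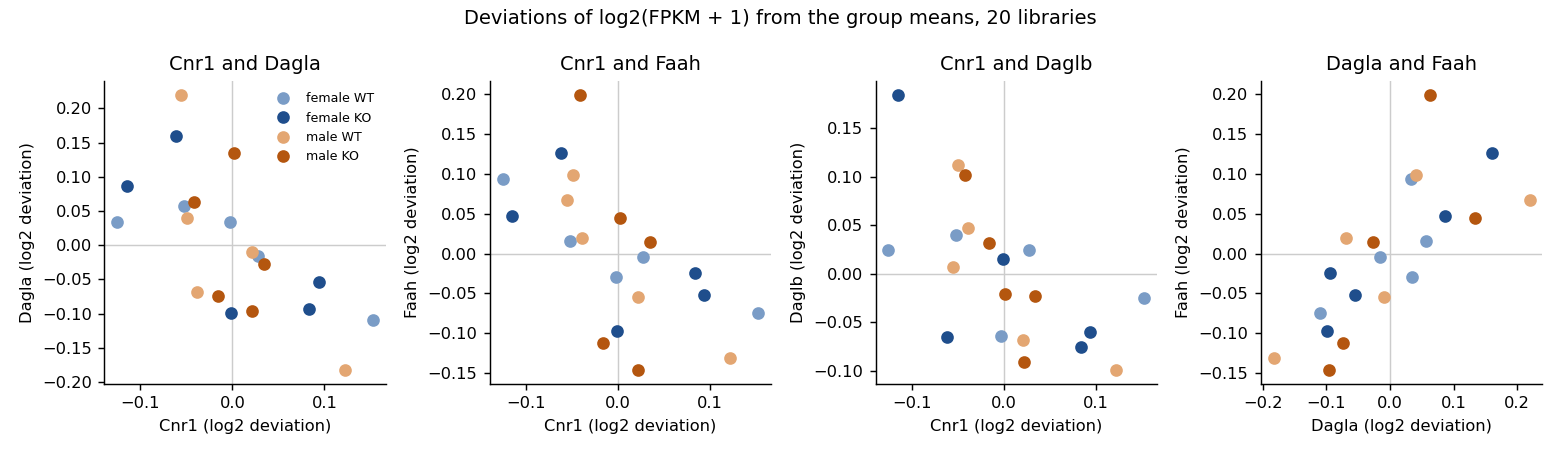
Deviation of each library from its group mean (log2(FPKM + 1), both axes) for the 4 pairs of genes that passed, coloured by group, 20 libraries each. The first 3 panels, with Cnr1 on the x axis, slope down (r = -0.67, -0.63 and -0.64), and the last, Dagla against Faah, slopes up (r = 0.75).

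The genes of these pairs differ in base composition, and the same libraries differ in their slope on GC content. The median GC content over the annotated transcripts was 44.9% for Cnr1, 51.1% for Daglb, 56.1% for Faah and 58.8% for Dagla. Over the 20 libraries the deviations correlated with the GC slope at -0.37 for Cnr1, 0.41 for Dagla, 0.52 for Daglb and 0.59 for Faah. With the GC trend of each library removed, an alternative chosen after the slopes were seen, the 4 values were -0.63 (Cnr1 and Dagla), -0.56 (Cnr1 and Faah), -0.57 (Cnr1 and Daglb) and 0.70 (Dagla and Faah), and all 4 pairs still passed. On values without the group means subtracted, Cnr1 and Daglb no longer passed (r = -0.48, adjusted permutation p = 0.112). All values of a library come from 1 tissue sample and 1 scaling, and their part in these relations was not tested.

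For each gene the 3 genes with the most similar deviations over the 20 libraries were taken from 11468 ranked genes, as a description without a test. The GC trend was left in for this ranking, and its part was not tested. For Cnr1 these were Peg10 (r = 0.90), Grin3a (0.84), a glutamate receptor subunit gene, and Gda (0.83), the guanine deaminase gene. For Dagla they were Sipa1l3 (r = 0.88), Iqsec2 (0.87) and Zfp142 (0.86), and for Faah they included Dgkz (0.85), a diacylglycerol kinase gene, and Dbn1 (0.83), the gene of the spine protein drebrin. For Daglb they were Gpr37l1 (r = 0.80), Kcnj4 (0.77) and Erf (0.76), for Mgll Zbtb7b (0.84), Slc39a3 (0.82) and Tmem80 (0.79), and for Abhd6 Rbm4 (0.81), Yy1 (0.71) and Zc3hav1 (0.70). Without subtracting the group means, Gpr37l1 was no longer like Daglb (r = 0.0088, rank 5644), while the other genes named here had r of 0.41 to 0.88 with their gene.

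Around the 6 genes, 59 other genes of the pathway were listed in 5 lists, and 58 of them were tested. Of the 58, 1 rose and 2 fell past the threshold in female KO, 0 changed in male KO, and 3 fell in the mean over both sexes. Among all tested genes 3.32%, 0.0455% and 3.22% passed in these comparisons, so 3 of 58 is close to the background in females and in the mean. None of the 58 passed for the difference between the KO effects of the sexes or between the sexes in WT, and 2 were higher in males than in females within KO, where 5.38% of all tested genes passed, a larger share than 2 of 58. These are 5 genes in all: Ptgs2, Pla2g4e, Dgkb, Dgkh and Homer1. The count in females fell to 0 without the 4 libraries high in Ttr and to 0 without the 3 high in Prl, which leaves 3 or 2 female KO libraries. Some cell type markers also passed between KO and WT in females: 2 of 7 for hippocampal principal neurons, 2 of 6 for dentate granule cells, 1 of 5 for CA1 pyramidal cells, 1 of 6 for GABA neurons, 1 of 7 for oligodendrocytes and 1 of 6 for meningeal fibroblasts. The first 3 of these lists share genes. None passed in females in the lists of CCK interneurons, astrocytes, microglia, endothelial cells, choroid plexus, pituitary and erythrocytes. None of the markers passed in males. The dentate granule markers summed to 59.6 to 76.2 FPKM in female WT and 43.4 to 62.3 in female KO, and the GABA neuron markers to 127 to 140 and 140 to 145. The part of these cells in the pathway results was not tested.

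**Figure D5:**
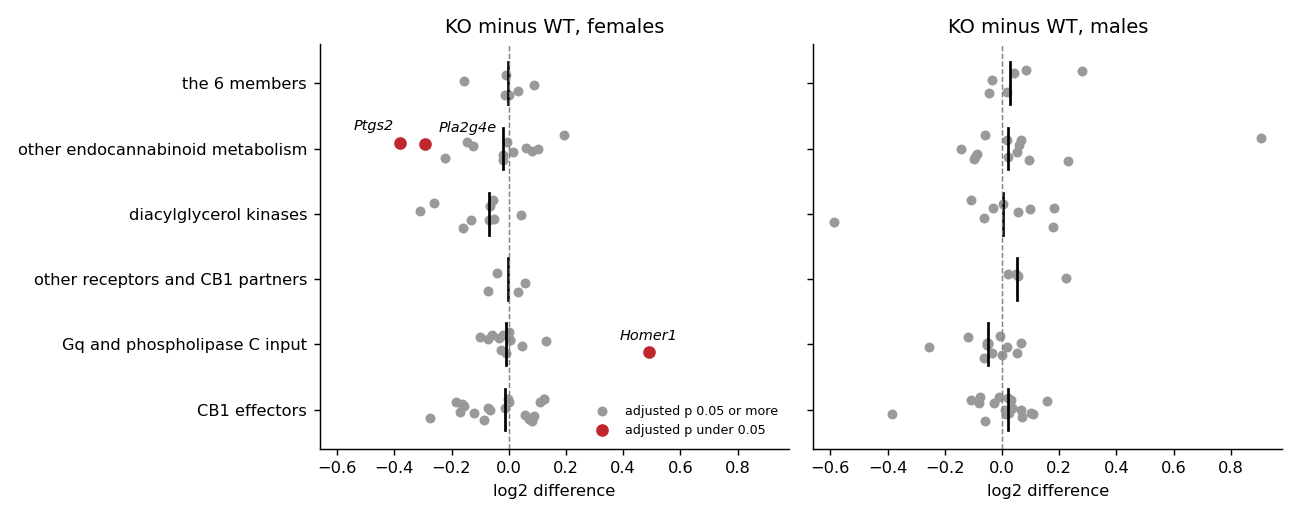
Log2 differences (x axis, log2(FPKM + 1) scale, KO minus WT) of the 6 genes and of the 58 tested genes of the other lists (points), in females and in males, with list medians as black bars and genes past the threshold in red. The list medians lie between -0.07 and 0.05, and only Ptgs2, Pla2g4e and Homer1, all in females, are red.

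Among the 13 other genes that make, carry or convert endocannabinoids, 2 fell in female KO (list median -0.02) and 0 changed in male KO (median 0.02). Ptgs2 encodes cyclooxygenase-2, which also oxygenates 2-arachidonoylglycerol. It was at 7.50, 8.13, 8.76, 9.07 and 9.53 FPKM in female WT and 6.62, 6.37, 6.47, 5.49 and 6.87 in female KO, so every female KO library was below every female WT library. The difference was -0.38 (SE 0.0629, limma adjusted p = 0.00557). It was -0.14 in males (WT at 8.77 ± 0.631 FPKM, KO at 7.85 ± 0.424; adjusted p = 0.537) and -0.26 in the mean over both sexes (adjusted p = 0.00472), while the KO effects of the sexes did not differ past the threshold (0.24, adjusted p = 0.390). Within KO, males were higher than females by 0.27 (adjusted p = 0.0258). The female call was lost without the libraries high in Ttr (-0.34, adjusted p = 0.0502) or in Prl (-0.30, adjusted p = 0.144), and the call in the mean without the latter (-0.22, adjusted p = 0.0536). The call between the sexes within KO was lost without those high in Ttr (0.25, adjusted p = 0.103) or in Prl (0.19, adjusted p = 0.302), with the GC trend removed (0.19, adjusted p = 0.134), without female KO 4 (0.22, adjusted p = 0.0514) and without male KO 1 (0.25, adjusted p = 0.0712).

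Pla2g4e encodes a phospholipase with N-acyltransferase activity that forms anandamide precursors, and its level was low. It was at 0.553, 0.543, 0.692, 0.759 and 0.978 FPKM in female WT and 0.436, 0.439, 0.385, 0.439 and 0.235 in female KO, without overlap. The difference was -0.29 in females (limma adjusted p = 0.0347), -0.09 in males (adjusted p = 0.801) and -0.19 in the mean (adjusted p = 0.0499). Both calls sit at the edge of the threshold. That in females was lost in the fit of only the compared groups (adjusted p = 0.081), without the libraries high in Ttr (-0.24, adjusted p = 0.226) or Prl (-0.35, adjusted p = 0.192), and without any 1 of female WT 3, 4 or 5 or female KO 2, 3 or 5 (-0.24 to -0.31, adjusted p between 0.0552 and 0.0875). That in the mean was lost without any 1 of 16 libraries (female WT 3 to 5, female KO 1 to 5, male WT 1 and 3 to 5, male KO 1 to 4; -0.16 to -0.20, adjusted p between 0.0523 and 0.0869), without the libraries high in Ttr or Prl (-0.15 and -0.22, adjusted p of 0.222 and 0.140), with the GC trend removed (adjusted p = 0.0536) and with no filter (adjusted p = 0.0505).

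In the same list Napepld, which encodes the phospholipase D that releases anandamide, also had 2 separated levels. It was at 2.60, 3.08, 3.12, 9.22 and 8.95 FPKM in male WT and 9.27, 10.6, 10.1, 9.68 and 9.06 in male KO. Male WT thus had 3 libraries near 3 FPKM and 2 near 9, and male KO had all 5 near 10. The female groups had both levels (3.13, 9.24, 3.13, 9.75 and 8.46 in WT; 10.4, 2.99, 8.58, 7.76 and 8.05 in KO). The male difference was 0.91, the largest of the list, and did not pass (limma adjusted p = 0.451). Of the 8 libraries on the upper Abhd6 level, 6 were on the upper Napepld level, which held 14 of all 20. Fabp7, a fatty acid binding protein gene, differed by 0.23 in males (adjusted p = 0.475).

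Diacylglycerol kinases consume the substrate of the diacylglycerol lipases. Of the 9 measured, 0 passed in female KO (median -0.07) and 0 in male KO (median 0.01). Dgkb fell in the mean over both sexes by 0.13 on the log2 scale (limma adjusted p = 0.0273). It was at 27.4 ± 1.49 FPKM in female WT and 24.4 ± 1.14 in female KO (-0.16, adjusted p = 0.0581), and in males at 27.4 ± 1.63 in WT and 25.3 ± 1.05 in KO (-0.11, adjusted p = 0.504; mean ± SD, n = 5 each). The Dgkb mean call was lost with the GC trend removed (-0.10, adjusted p = 0.1001), without female KO 2 (-0.13, adjusted p = 0.0531), and without the libraries high in Ttr (-0.14, adjusted p = 0.0874) or Prl (-0.11, adjusted p = 0.222). The female difference passed without any 1 of female WT 1, male WT 2 or male WT 4 (-0.18, -0.16 and -0.16, adjusted p of 0.0439, 0.0458 and 0.0479).

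Dgkh was higher in male KO (14.3 ± 0.376 FPKM) than in female KO (10.9 ± 1.57), by 0.37 (limma adjusted p = 0.0264). In WT it was at 12.5 ± 0.595 FPKM in males and 13.3 ± 2.18 in females (-0.07, adjusted p = 0.825). The KO effect on Dgkh was -0.26 in females (adjusted p = 0.106) and 0.18 in the male libraries (adjusted p = 0.591), and the difference between these effects, 0.44, did not pass (adjusted p = 0.292). Its call within KO was lost without any 1 of female KO 3, female KO 5 or male KO 1 (0.33, 0.33 and 0.35, adjusted p of 0.0651, 0.0629 and 0.0716), with the GC trend removed (0.36, adjusted p = 0.0589) and without the libraries high in Ttr (0.30, adjusted p = 0.123) or Prl (0.32, adjusted p = 0.264), and the female KO effect passed without female KO 1 (-0.33, adjusted p = 0.0422). Dgke had 2 separated levels, at most 6.22 or at least 10.3 FPKM, with all 5 male WT libraries and 2 of 5 male KO libraries on the upper one, and its male difference of -0.59 did not pass (adjusted p = 0.559).

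Upstream, among 13 genes of the Gq and phospholipase C input, 1 rose in female KO (median -0.01) and 0 changed in male KO (median -0.05). That gene was Homer1, which encodes a postsynaptic scaffold of group I metabotropic glutamate receptors. It was at 9.59, 9.02, 9.23, 7.08 and 8.29 FPKM in female WT and 13.8, 12.2, 13.6, 10.7 and 12.4 in female KO, with every KO library above every WT library. The difference was 0.49 in females (SE 0.127, limma adjusted p = 0.0393) and 0.02 in males (WT at 10.7 ± 2.08 FPKM, KO at 10.8 ± 1.93; mean ± SD, n = 5 each; adjusted p = 0.987). The KO effects of the sexes differed by -0.47, which did not pass (adjusted p = 0.406). The female call was lost without any 1 of female WT 2 to 5 or female KO 1, 2, 3 or 5 (0.43 to 0.51, adjusted p between 0.0523 and 0.110) and without the libraries high in Ttr (0.50, adjusted p = 0.153) or Prl (0.55, adjusted p = 0.230), and the mean over both sexes (0.25, adjusted p = 0.132) passed without male KO 4 (0.31, adjusted p = 0.0453). The next genes in the list were Gna11, a Gq family subunit gene (0.13 in females, adjusted p = 0.121), Gnaq (-0.05 in males, adjusted p = 0.607) and Camk2a (0.07 in males, adjusted p = 0.638).

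Downstream, 0 of 19 CB1 effector genes passed in female KO (median -0.01) or in male KO (median 0.02). Among those with the smallest p-values were Gnai2, an inhibitory G protein subunit gene (0.12 in females, limma adjusted p = 0.103), Kcnj6, a GIRK potassium channel gene (-0.27 in females, adjusted p = 0.126), and Rims1 (0.11 in males, adjusted p = 0.685). Of the 5 listed other receptors and CB1 partners 4 were tested and 0 passed in either sex (median -0.00 in females and 0.05 in males). They included Gprasp1, a receptor sorting protein gene (-0.04 in females, adjusted p = 0.651), Ppara, the gene of a nuclear receptor of lipid amides (0.06 in females, adjusted p = 0.718), and Sgip1 (0.22, adjusted p = 0.683) and Cnrip1 (0.05, adjusted p = 0.816) in males, both genes of CB1-interacting proteins. Cnr2, Gpr55, Gpr18, Gpr119 and Trpv1 were not analysed here.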

How the data were processed

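Per the file headers, the tables deposited by the authors hold FPKM, with 1 value for each gene and library. Per the submitters' processing notes, the authors used FastQC, HISAT2, StringTie and the mouse build mm10. Which versions, annotation release, trimming and strand setting they used was not given in the sources used here. FPKM are not counts, so sequencing depth is unknown and no counting interval was computed. All 20 tables list the same 13256 genes. Groups and replicate numbers come from the sample titles.

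Genes reaching 0.5 FPKM in at least 5 libraries (13174) were taken as log2(FPKM + 1), a scale that understates changes of low genes, and fitted by limma-trend (limma 3.58.1 in R 4.3.3) with 1 mean per group over all 20 libraries. Gene p-values come from limma and were adjusted by Benjamini-Hochberg over all 13174 (threshold 0.05). There were 6 comparisons. Fmr1 was tested by an exact permutation test within each sex. The fit was tested on simulated data. GC content per gene is the median over its transcripts, non-coding ones included. GC content, transcripts and overlaps come from GENCODE M21, coordinates from the deposited tables, and start-site windows from RefSeq (GRCm38.p6). Python 3.11.15, NumPy 2.4.6 and SciPy 1.17.1 were used.

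The 6 genes and the lists were chosen with earlier results of these data known. Named genes are the 6, Fmr1, the members of each other pathway list past the threshold in any comparison or with the 2 smallest p-values in either sex, and the 3 genes most like each of the 6 (mean of at least 1 FPKM, plain symbol). Rac1, Ttr and Prl are named outside this rule, and some genes that the rule takes are not reported here.

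Alternatives were upper-quartile rescaling, a pseudocount of 0.1, no filter or one of 2 FPKM, a fit of only the compared groups, a replicate block, removal of a loess trend on GC (span 0.5), and leaving out each library, the 4 libraries over 500 FPKM in Ttr or the 3 over 4 FPKM in Prl.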

Additional observations from a re-analysis of the deposited data

Results flagged for a closer look

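Of 112 groups of 5 libraries checked for 1 library far from the rest (the 6 genes, their 3 ratios and the 19 named pathway genes), 6 held such a library, and chance gives about 1 in 20 groups. Abhd6 in female KO 4 was at 29.8 FPKM, against 17.6 in the next library of its group. Camk2a in male WT 5 was at 317 FPKM, against 291. Cnrip1 in female WT 5 was at 26.4 FPKM, against 23.7. Pla2g4e in female KO 5 was at 0.235 FPKM, against 0.385 in the next lowest. Rims1 in female WT 2 was at 17.3 FPKM, against 19.95 in the next lowest. Sgip1 in male KO 1 was at 24.0 FPKM, against 22.3.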

How the results depend on the processing

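Over 36 values of the 6 genes (6 comparisons each) 1032 alternative fits were made. Of these 1 passed the threshold (Daglb in females without female KO 2, adjusted p = 0.0471), 51 had the other sign, and 20 of the 36 values kept 1 sign throughout. The count of the 6 genes past the threshold in females was 0 to 1 when 1 library was left out. For the other pathway genes in females the count, 3, was 1 to 4 when 1 library was left out and 0 without the libraries high in Ttr and 0 without those high in Prl. For the mean over both sexes the count, 3, was 1 to 3 when 1 library was left out, 1 with the GC trend removed, 1 without the libraries high in Ttr and 0 without those high in Prl. For males against females in KO the count, 2, was 0 to 4 when 1 library was left out and 0 with the GC trend removed, 0 without the libraries high in Ttr and 0 without those high in Prl. Of 60 alternatives for the correlations 58 kept their call. The exceptions were Cnr1 and Daglb on values without group means subtracted (r = -0.48) and Daglb and Faah without 2 libraries (r = 0.72).

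Over all genes the female count of 438 was 176 to 525 when 1 library was left out, 91 in the fit of only the compared groups, 251 with the GC trend removed, 76 without the libraries high in Ttr and 8 without those high in Prl. The male count of 6 was 6 to 11 when 1 library was left out, 3 with a filter of 2 FPKM and 12 without the libraries high in Ttr. The mean count of 424 was 273 to 449 when 1 library was left out, 181 without the libraries high in Ttr and 84 without those high in Prl. For the difference of the KO effects, 6 became 3 to 7, 0 with a filter of 2 FPKM, 3 with the GC trend removed and 2 without the libraries high in Prl. The count of 17 for the sexes in WT became 11 to 17, and 9 in the fit of only the compared groups. The count of 709 for the sexes in KO became 160 to 866, 99 with the GC trend removed, 71 without the libraries high in Ttr and 23 without those high in Prl. The cause was not tested, and the fits that leave out libraries have fewer samples.

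With the replicate block 0 of the 6 genes passed in any comparison, the Pla2g4e call in the mean was lost (adjusted p = 0.0539), and 320 genes passed in females, 309 in the mean, 3 for the difference of the KO effects and 495 between the sexes in KO. Over 30 pairings of groups and numbers, same-numbered samples had correlations of deviations from -0.105 to 0.065, 0 over 0.1. A number correlated best with itself in 5 of 30. The labels give only the number, and whether same-numbered samples share more than that was not tested.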
